A study of Mus musculus with 8 samples.

Results

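The gasdermin, caspase, sensor, adaptor, cytokine and membrane rupture genes of inflammasome pyroptosis were measured in bone marrow-derived macrophages (BMDMs) of WT and Gsdmd-/- mice. The genes were the 10 rows of a table of 54532 genes that carry the symbol Gsdmd, Gsdme, Casp1, Casp4, Nlrp3, Aim2, Pycard, Il1b, Il18 or Ninj1, and each symbol matched 1 row. BMDMs were obtained by culturing the marrow of femurs and tibias for 6 days with macrophage colony-stimulating factor (M-CSF), which drives progenitors into macrophages. RNA was sequenced from 4 WT and 4 Gsdmd-/- libraries of cells that had received no treatment. By the methods of the study, the WT mice were female C57BL/6J aged 6 to 8 weeks and were bought from a supplier, whereas the Gsdmd knockout mice were a gift and were kept in the animal house of the university. The methods of BMDM culture name marrow of female C57BL/6J mice of that age, without separating the genotypes. The exons removed in the knockout allele, a substrain stated for the Gsdmd-/- mice themselves and whether any of them were littermates of the WT mice are not given in the sources used here. It is also not given whether the 4 libraries of a genotype are those of 4 mice, so the p-values measure only the spread between these libraries, which may be technical.

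Pyroptosis is a lytic form of cell death of macrophages that have sensed microbes or damage. Sensors such as Nlrp3 and Aim2 bind the adaptor ASC, encoded by Pycard, and recruit caspase-1, which matures the cytokines Il1b and Il18 and cuts gasdermin D. The freed amino-terminal part of gasdermin D forms pores in the plasma membrane, and Ninj1 then tears the membrane. In macrophages that have not been primed, transcripts of Il1b are scarce, and signals that act through NF-kB raise those of Il1b and Nlrp3.

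Among the 10 genes, Gsdmd was lower in Gsdmd-/- than in WT macrophages and no other gene passed the test. By the quasi-likelihood test of edgeR with Benjamini-Hochberg adjustment over 12911 genes, 1 of the 10 genes was lower and 0 were higher at an adjusted p under 0.05, where 0.349% of all genes tested passed in either direction. DESeq2 and limma voom likewise gave 0 higher at an adjusted p under 0.05. At an unadjusted p under 0.05, 0 of the 10 were higher with edgeR (beside 4.74% of all genes) and with DESeq2 (4.55%). That count was 1 with limma voom (5.21%), with the replicate number as a block (3.99%) and without Gsdmd-/- 4 (3.69%), and 3 with every gene tested (3.54%) and without WT 4 (9.38%). The looser cutoff of the study asks for an unadjusted p under 0.05 with a log2 fold change of 0.5 or more in either direction. Again Gsdmd alone of the 10 genes met it, where 3.28% of all genes tested were lower and 1.54% higher (4.83% together). The 2 groups of libraries were apart, without overlap, for 1 of the 10 genes, Gsdmd, beside 7.59% of all genes (4.11% lower and 3.48% higher). All 10 genes passed the filter on low counts. Of their log2 fold changes 6 lay above 0 and 4 below, with a median of 0.039, and the median over all genes tested was -0.0068.

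Total counts were 14935114 to 16794810 per library, and 3 counts, the most that a count of 0 allows, corresponded to 0.179 to 0.201 CPM (counts scaled to a library of 1000000). WT 2 and WT 3 stood apart from the other 6 libraries. Their scores on the principal component with the largest variance (43.6% of the variance of log2 CPM) were 45.4 and 38.8, and those of the other libraries were -25.9 to -7.19. The fold changes were therefore also fitted without WT 2 and WT 3. That fit was chosen from these values and set 2 WT against 4 Gsdmd-/- libraries, so its p-values depend on the choice. Macrophage markers, 10 genes led by Lyz2, summed to 15445 to 23569 CPM in WT and 19507 to 23494 CPM in Gsdmd-/- libraries, with the 2 lowest sums in WT 2 and WT 3. Lyz2 made up most of that sum, while Mertk and Adgre1 were highest in WT 2 and WT 3, with Mertk at 249 and 212 CPM against 101 to 142 CPM elsewhere, and Adgre1 at 319 and 326 CPM against 242 to 291 CPM. Markers of classical monocytes, the circulating cells from which many macrophages arise, comprised 6 genes. They summed to 147, 23.6, 17.9 and 155 CPM in WT 1 to 4, and to 47.1 to 79.4 CPM in Gsdmd-/- libraries. Ly6c2, the defining gene of that list, was at 1.53 and 0.43 CPM in WT 2 and WT 3 and at 15.4 to 35.4 CPM elsewhere. In RNA from a whole culture, fewer cells of a type and less RNA per cell cannot be told apart. Among the other cell types, Ly6g and Retnlg of neutrophils, Siglech of plasmacytoid dendritic cells, Cd3d and Ncr1 of T and NK cells and Hba-a1 and Hbb-bs of red cells were at 0 in all 8 libraries. The neutrophil list, 12 genes, still summed to 662 to 951 CPM in WT and 554 to 680 CPM in Gsdmd-/- libraries, nearly all of it from Mmp8. The dendritic cell list, 10 genes of which Itgax held most of the counts, summed to 2277 to 2435 CPM in WT and 1719 to 2159 CPM in Gsdmd-/- libraries. These ranges did not overlap. Within that list Kit was low in WT 2 and WT 3 (11.4 and 10.2 CPM, against 45.9 to 70.9 CPM elsewhere) and Clec9a high (49.0 and 45.2 CPM, against 14.4 to 18.3 CPM). The lists for T, NK and B cells (10 genes), stromal and endothelial cells (8 genes), mast cells and basophils (7 genes) and red cells and megakaryocytes (7 genes) summed to at most 11.7, 82.7, 10.1 and 29.8 CPM in any library. In WT 2 and WT 3 the stromal and endothelial list was at its lowest (30.8 and 29.5 CPM, against 51.0 to 82.7 CPM elsewhere, most of it Kdr) and the T, NK and B cell list at its highest (11.0 and 11.7 CPM, against 1.46 to 3.08 CPM elsewhere, most of it Ighm). Across all lists, no tested marker passed an adjusted p under 0.05, where 0.349% of all genes tested did. Many markers had too few counts for the test, which took 4 of the 12 neutrophil genes and 2 of the 10 T, NK and B cell genes. The part of these cell type markers in the results below was not tested.

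**Figure D1:**
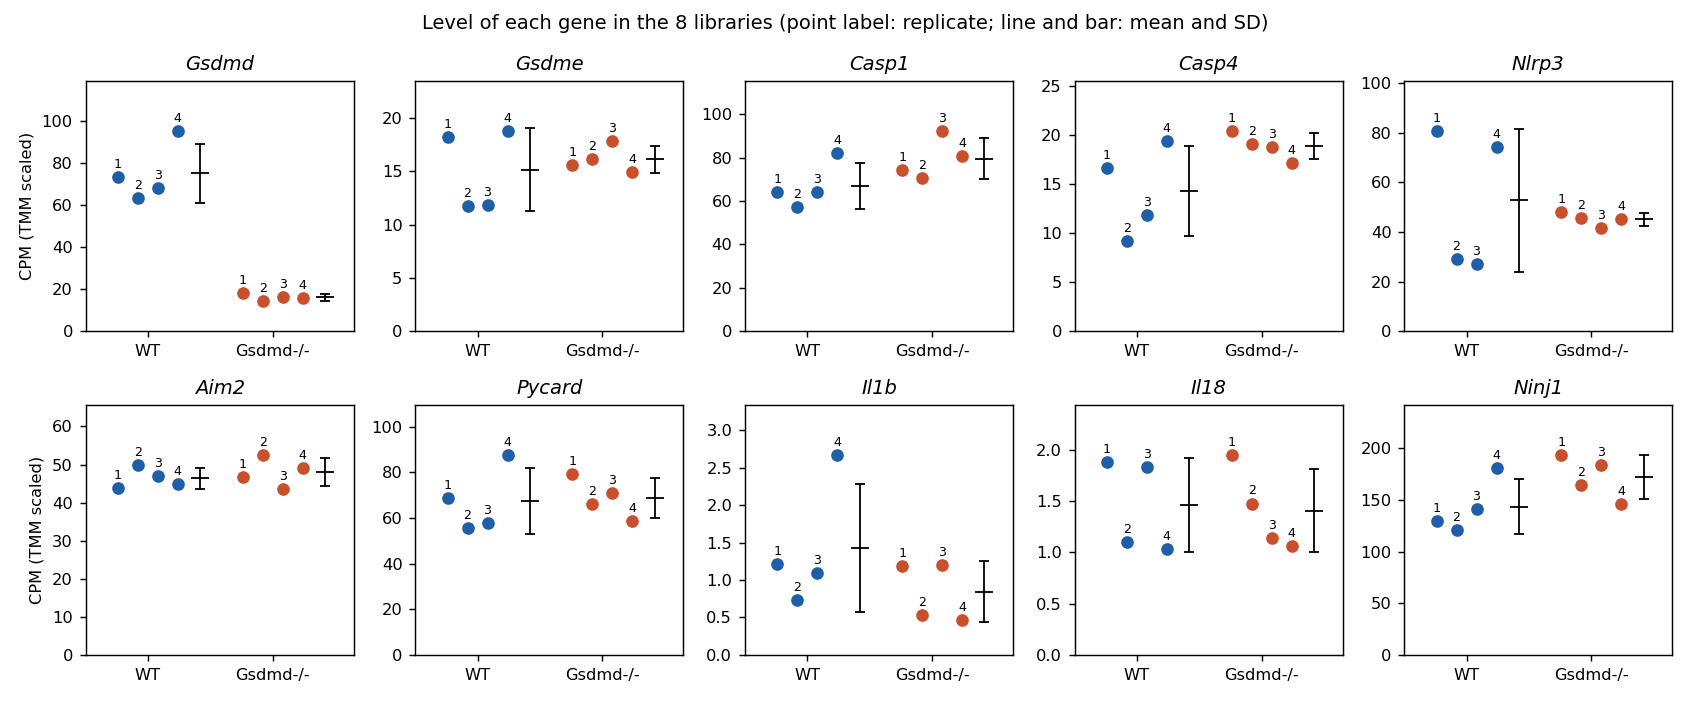
Level of each of the 10 genes in CPM (linear axes from 0) in the 4 WT libraries (blue) and the 4 Gsdmd-/- libraries (red), with the replicate number above each point. The horizontal mark and bar are the mean and the SD. Only the panel of Gsdmd shows groups that do not overlap, with WT at 63.4 to 95.4 CPM and Gsdmd-/- at 14.4 to 18.2 CPM. WT 2 and WT 3 lie at the bottom of the panels of Gsdme, Casp1, Casp4, Nlrp3 and Pycard, by a small margin for Casp1 and Pycard.

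Gsdmd encodes gasdermin D, the pore-forming protein, and is the gene targeted in the knockout. It lies on chromosome 15 (75862327 to 75867408, plus strand, GRCm38). Its level was 73.7, 63.4, 68.4 and 95.4 CPM in WT 1 to 4 and 18.2, 14.4, 16.3 and 16.0 CPM in Gsdmd-/- 1 to 4. All Gsdmd-/- libraries were thus below all WT libraries, with means of 75.2 ± 14.1 and 16.2 ± 1.56 CPM (SD, n = 4 each). The knockout libraries kept 21.5% of the WT mean. The log2 fold change was -2.22 (standard error 0.14, 95% confidence interval -2.52 to -1.91, adjusted p = 4.665e-05 by edgeR), which placed Gsdmd at rank 4 of the genes tested by p. It was -2.39 without WT 2 and WT 3. The exons that gave the remaining reads cannot be read from a count per gene.

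The genes beside Gsdmd on chromosome 15 were compared because a knockout allele is inherited with the chromosome segment around it. Of 12 neighbours between Mafa (114099 bases to the left) and Nrbp2 (218110 bases to the right), 10 had enough counts for the test. None of the 10 passed an adjusted p under 0.05 with edgeR, DESeq2 or limma voom, none had an unadjusted p under 0.05, and all had overlapping groups. Over all genes the shares under these rules were 0.349%, 12.0% and, without overlap, 7.59%. Their median log2 fold change was -0.057. The lowest p of these neighbours belonged to Naprt, the nicotinate phosphoribosyltransferase of NAD synthesis, which lies 23548 bases to the right. Its mean was 1.60 ± 0.43 CPM for WT and 1.16 ± 0.15 CPM for Gsdmd-/- (SD, n = 4), and its log2 fold change was -0.46 (95% confidence interval -1.05 to 0.13, adjusted p = 0.541). Naprt shares exon sequence with Eef1d, and its log2 fold change was -0.11 without WT 2 and WT 3 and -0.30 without WT 2.

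Gsdme, on chromosome 6 (50188888 to 50263862, minus strand), encodes gasdermin E, a pore former that caspase-3 activates. Its level was 18.2, 11.8, 11.8 and 18.8 CPM in WT 1 to 4 and 15.6, 16.1, 17.9 and 14.9 CPM in Gsdmd-/- 1 to 4. WT 2 and WT 3 were the lowest of the 8 libraries and WT 1 and WT 4 the highest, so that the Gsdmd-/- libraries all lay between the WT extremes. The means were 15.2 ± 3.88 and 16.1 ± 1.27 CPM (SD, n = 4), and the log2 fold change of 0.088 (95% confidence interval -0.29 to 0.47, adjusted p = 0.878) did not pass the test. Without WT 2 and WT 3 its sign turned, to -0.20 (95% confidence interval -0.46 to 0.055, adjusted p = 0.517). Of the other gasdermins, Gsdma, Gsdma2, Gsdma3, Gsdmc, Gsdmc2, Gsdmc3, Gsdmc4 and Pjvk had at most 5 counts in any library and could not be tested. Members of the Gsdma and Gsdmc groups are near-identical copies, among which shared reads may have been split or lost.

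Casp1, which encodes caspase-1, the protease that canonical inflammasomes activate, lies on chromosome 9 (5298517 to 5307265, plus strand). Its level was 64.3, 57.5, 64.0 and 82.4 CPM in WT 1 to 4 and 74.5, 70.4, 92.3 and 81.0 CPM in Gsdmd-/- 1 to 4. All Gsdmd-/- libraries exceeded WT 1, WT 2 and WT 3, while WT 4 lay within their range. The log2 fold change was 0.25 (standard error 0.13, 95% confidence interval -0.033 to 0.53, adjusted p = 0.489), and 0.12 without WT 2 and WT 3.

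Casp4 encodes the mouse caspase often called caspase-11, which binds cytosolic lipopolysaccharide and cuts gasdermin D without a canonical inflammasome. It starts next to Casp1 on chromosome 9 (5308828 to 5336783, plus strand). Its promoter is shown because its level fell furthest from the rest in WT 2 and WT 3 after Nlrp3, and because 3 matches to an NF-kB motif lie in it. The 250 bases before the RefSeq start site at chr9:5308599-5308848 (GRCm38.p6, plus strand) read as follows, with matches to GGG and TTCC spaced by any 3 bases, on either strand, in capitals.
Casp4: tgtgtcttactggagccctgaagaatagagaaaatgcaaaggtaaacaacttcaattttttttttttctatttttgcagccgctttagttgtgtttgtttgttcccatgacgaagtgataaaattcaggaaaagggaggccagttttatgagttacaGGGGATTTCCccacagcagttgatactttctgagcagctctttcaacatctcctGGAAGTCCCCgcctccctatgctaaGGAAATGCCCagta
Of 32851 mouse promoter windows of the same length, 4.65% held that motif, and of the 9 genes among the 10 that had a promoter in the RefSeq table it was Casp4 alone. A match is a string of letters and not a measured binding site. The level of Casp4 was 16.7, 9.21, 11.8 and 19.4 CPM in WT 1 to 4 and 20.4, 19.1, 18.8 and 17.2 CPM in Gsdmd-/- 1 to 4. WT 2 and WT 3 were below the other 6 libraries, and WT 4 lay among the Gsdmd-/- libraries. The means were 14.3 ± 4.60 and 18.9 ± 1.34 CPM (SD, n = 4), with a log2 fold change of 0.40 (95% confidence interval -0.050 to 0.85, adjusted p = 0.486). This value rested on which WT libraries were used. It was 0.24 without WT 2, 0.065 (95% confidence interval -0.20 to 0.33, adjusted p = 0.891) without WT 2 and WT 3, and 0.59 (adjusted p = 0.125) without WT 4, where Casp4 passed the looser cutoff of the study.

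**Figure D2:**
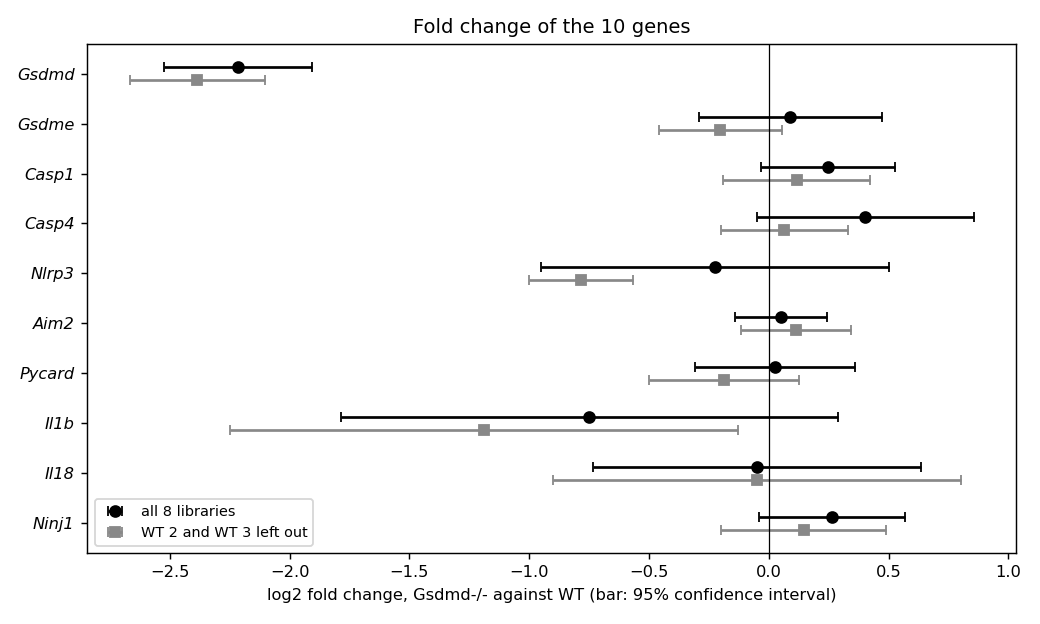
Log2 fold change of each of the 10 genes, Gsdmd-/- against WT, with its 95% confidence interval, from all 8 libraries (black circles) and with WT 2 and WT 3 left out (grey squares). With all libraries the interval of Gsdmd alone stays clear of 0, from -2.52 to -1.91. With WT 2 and WT 3 left out the intervals of Nlrp3 (-0.999 to -0.57) and Il1b (-2.25 to -0.13) lie below 0 too, in intervals that are not adjusted for the number of genes.

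Nlrp3 encodes the sensor of potassium efflux, crystals and pore-forming toxins, and lies on chromosome 11 (59541568 to 59566956, plus strand). Its promoter is shown because, of the 10 genes, it had the largest SD of log2 CPM between WT libraries, 0.85 against 0.72 for Il1b. RefSeq lists 2 start sites, and the 250 bases before the downstream site at chr11:59542436-59542685 (GRCm38.p6, plus strand) hold 3 matches to GAGGAA on either strand, the core letters bound by the myeloid factor PU.1, which are in capitals.
Nlrp3: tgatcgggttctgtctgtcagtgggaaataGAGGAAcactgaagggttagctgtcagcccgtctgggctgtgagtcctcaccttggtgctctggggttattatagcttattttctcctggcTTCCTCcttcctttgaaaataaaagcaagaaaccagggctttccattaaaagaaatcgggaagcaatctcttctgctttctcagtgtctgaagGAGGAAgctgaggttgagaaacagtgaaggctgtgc
That motif was in 23.3% of the promoter windows and in 4 of the 9 genes with a window, Aim2, Casp1, Nlrp3 and Pycard. The window before the upstream start site of Nlrp3 held none. Neither the motif of interferon regulatory factors, GAAA and GAAA spaced by any 2 bases , which 2.98% of windows held, nor the TGANTCA motif of AP-1 (6.75% of windows) was in any window of the 9 genes.

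The level of Nlrp3 was 80.7, 29.0, 27.0 and 74.2 CPM in WT 1 to 4. It was 47.9, 45.5, 41.8 and 45.1 CPM in Gsdmd-/- 1 to 4. The 4 WT libraries thus formed a high pair (WT 1 and WT 4) and a low pair (WT 2 and WT 3), and all Gsdmd-/- libraries lay between the pairs. The WT libraries spanned 2.99-fold and the Gsdmd-/- libraries 1.15-fold, while Il1b, at low counts, spanned 3.65-fold in WT. With all libraries, the means were 52.7 ± 28.7 and 45.1 ± 2.52 CPM (SD, n = 4), and the log2 fold change was -0.23 (standard error 0.33, 95% confidence interval -0.95 to 0.50, adjusted p = 0.827). Without WT 2 and WT 3, Nlrp3 was lower in Gsdmd-/- macrophages by -0.78 on the log2 scale (standard error 0.10, 95% confidence interval -0.999 to -0.57, adjusted p = 0.00646), a fit in which 1.21% of 13288 genes passed. Because WT 2 and WT 3 were the lowest libraries for Nlrp3, leaving them out set the direction of that result. Its adjusted p is therefore no independent test of genotype. Leaving out WT 1 alone turned the sign, to 0.059, leaving out WT 4 alone gave -0.013, and limma voom gave -0.047. The direction of the difference in Nlrp3 therefore depended on the WT libraries used. The summed level of the monocyte markers was also high in WT 1 and WT 4 and low in WT 2 and WT 3, and its part in the level of Nlrp3 was not tested.

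The genes whose log2 CPM, centred on the mean of each gene, lay closest to Nlrp3 over the 8 libraries were Glipr2, Mpeg1 and Gm32089, at root mean square differences of 0.13, 0.14 and 0.15. Mpeg1, which encodes the macrophage pore protein perforin-2, was at 2315, 902, 868 and 2162 CPM in WT 1 to 4 and at 1434 to 1758 CPM in Gsdmd-/- libraries. Glipr2 was at 40.9, 18.9, 18.4 and 42.1 CPM in WT 1 to 4 and at 27.1 to 30.5 CPM in Gsdmd-/- libraries. Both showed the high and the low WT pair with the Gsdmd-/- libraries between them. The likeness is a description over 8 libraries that share these pairs. For Gsdmd, the closest genes were Mid1 (0.52), C130050O18Rik (0.52) and Ahrr (0.55), all lower in Gsdmd-/- at log2 fold changes of -2.20, -1.55 and -1.15 (adjusted p = 0.0257, 0.0239 and 0.00178). Ahrr, the repressor of the aryl hydrocarbon receptor, spanned 31.5 to 38.4 CPM across WT and 13.5 to 17.9 CPM across Gsdmd-/- libraries. The likeness to Gsdmd is that of genes with the same split by genotype.

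**Figure D3:**
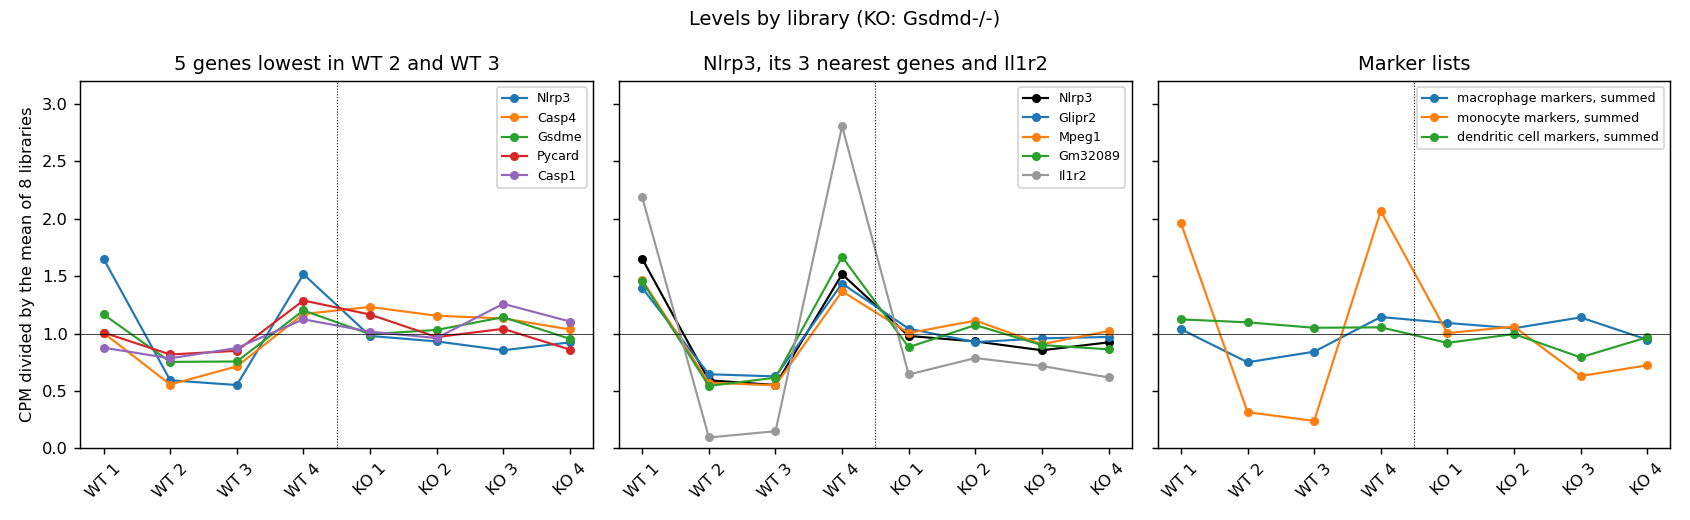
CPM divided by the mean over the 8 libraries (y axis, a ratio), in the libraries in order (x axis), for the 5 genes lowest in WT 2 and WT 3 (left), for Nlrp3, its 3 closest genes and Il1r2 (middle) and for the summed macrophage, monocyte and dendritic cell markers (right). Lines only join the points of a gene. WT 2 and WT 3 form a dip in Nlrp3, in its closest genes, in Il1r2 and in the monocyte markers, which summed to 23.6 and 17.9 CPM there, and form no such dip in the summed dendritic cell markers, most of which is Itgax.

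Aim2, on chromosome 1 (173350879 to 173466040, plus strand), encodes the sensor of cytosolic double-stranded DNA. Its level was 43.8, 49.96, 46.9 and 44.8 CPM in WT 1 to 4 and 46.8, 52.6, 43.7 and 49.1 CPM in Gsdmd-/- 1 to 4. The groups overlapped throughout, and WT 2 and WT 3 did not stand out. With a log2 fold change of 0.051 (95% confidence interval -0.14 to 0.24, adjusted p = 0.858), its interval was the narrowest of the 10 genes. The log2 fold change was 0.11 without WT 2 and WT 3, and 0.00012 to 0.096 on leaving out 1 library.

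Pycard encodes ASC, the adaptor that links a sensor to caspase-1, and lies on chromosome 7 (127989708 to 127993867, minus strand). Its level was 68.6, 55.6, 57.8 and 87.7 CPM in WT 1 to 4 and 79.3, 66.0, 70.8 and 58.6 CPM in Gsdmd-/- 1 to 4. WT 2 and WT 3 were the lowest libraries by a small margin, below Gsdmd-/- 4. The log2 fold change was 0.027 (95% confidence interval -0.31 to 0.36, adjusted p = 0.963), and -0.19 (adjusted p = 0.663) without WT 2 and WT 3. Its exons overlap the antisense transcript Gm45205, whose reads cannot be told apart from those of Pycard where counting took no account of strand.

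Il1b encodes the fever-inducing cytokine that caspase-1 matures, and lies on chromosome 2 (129364570 to 129371139, minus strand). It was close to the limit of detection, with 20, 12, 18 and 44 counts in WT 1 to 4 and 20, 9, 19 and 7 counts in Gsdmd-/- 1 to 4. WT 4 held the highest count and the other 7 libraries overlapped. This was 1.43 ± 0.85 CPM in WT and 0.85 ± 0.40 CPM in Gsdmd-/- (SD, n = 4). The log2 fold change of -0.75 had a wide interval (standard error 0.47, 95% confidence interval -1.79 to 0.29, adjusted p = 0.571). It was -0.26 without WT 4 and -1.19 (adjusted p = 0.310) without WT 2 and WT 3. Exons of Il1b overlap the antisense transcript Il1bos, with the same limit on strand as for Pycard.

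Il18, on chromosome 9 (50554827 to 50581840, plus strand), encodes the other cytokine that caspase-1 matures. It had 31, 18, 30 and 17 counts in WT 1 to 4 and 33, 25, 18 and 16 counts in Gsdmd-/- 1 to 4. Both groups spanned the same range, and WT 2 and WT 3 did not lie together. The means were 1.46 ± 0.46 and 1.41 ± 0.41 CPM (SD, n = 4), with a log2 fold change of -0.049 (95% confidence interval -0.74 to 0.64, adjusted p = 0.967), and of -0.049 without WT 2 and WT 3 as well.

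Each cytokine was also set against its natural inhibitor within the same library, a ratio that needs no scaling between libraries. Il1rn encodes the IL-1 receptor antagonist, and averaged 215 ± 71.4 CPM over WT and 236 ± 10.9 CPM over Gsdmd-/- libraries (SD, n = 4), a log2 fold change of 0.14 (adjusted p = 0.824) that turned to -0.21 without WT 2 and WT 3 and was 0.0038 without WT 2, 0.018 without WT 3 and 0.35 without WT 4. The log2 ratio of Il1b to Il1rn counts averaged -7.34 ± 0.42 over WT and -8.26 ± 0.77 over Gsdmd-/- libraries (SD, n = 4), a difference of -0.92 (exact permutation test, two-sided, p = 0.171, adjusted over the 2 ratios 0.314). Il18bp encodes the secreted protein that binds and blocks Il18, and was at 16.2 ± 4.83 and 20.3 ± 1.36 CPM (log2 fold change 0.33, adjusted p = 0.540). Its log2 fold change was 0.013 without WT 2 and WT 3 and 0.21 without WT 2, and without WT 4 it was 0.52 (adjusted p = 0.119), which met the cutoff of the study. Exons of Il18bp overlap those of Numa1 on the opposite strand, with the same limit on strand as for Pycard. That of Il18 to Il18bp counts averaged -3.48 ± 0.69 over WT and -3.89 ± 0.31 over Gsdmd-/- libraries (SD, n = 4), a difference of -0.41 (exact permutation test, two-sided, p = 0.314, adjusted 0.314). This difference rested on single libraries, at -0.73 without WT 4 (exact permutation p = 0.0571), -0.18 without WT 3 and -0.049 (exact permutation p = 0.933) without WT 2 and WT 3. The smallest p that 4 against 4 libraries allow in this test is 0.0286. Without WT 4 the smallest p is 0.0571, so no difference could fall under 0.05 in that setting.

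Ninj1 encodes ninjurin-1, which ruptures the plasma membrane after the gasdermin pores have formed, and lies on chromosome 13 (49187485 to 49196244, plus strand). Its level was 129.5, 121, 141 and 181 CPM in WT 1 to 4 and 194, 164, 184 and 146 CPM in Gsdmd-/- 1 to 4. Every Gsdmd-/- library exceeded WT 1, WT 2 and WT 3, while WT 4 lay among them, as for Casp1. The means were 143 ± 26.6 and 172 ± 21.2 CPM (SD, n = 4), with a log2 fold change of 0.26 (95% confidence interval -0.042 to 0.57, adjusted p = 0.498), of 0.15 (adjusted p = 0.788) without WT 2 and WT 3, and of 0.40 (adjusted p = 0.109) without WT 4.

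Both WT 2 and WT 3 were below the other 6 libraries for 5 of the 10 genes, Gsdme, Casp1, Casp4, Nlrp3 and Pycard, and above them for none, beside 17.6% and 17.9% of all genes tested. This was seen after the values were known and is given without a test. For Casp1 the margin was very small, with WT 3 at 64.03 CPM and WT 1 at 64.25 CPM. For Pycard it was small too, with WT 3 at 57.8 CPM and Gsdmd-/- 4 at 58.6 CPM. Among 47 tested genes of the pathway outside the 10, the pair was below the rest for 10, among them Zbp1, Irf8, Il1rn, Il18bp and Il1r2, and above the rest for 7, namely Nlrc4, Nlrp10, Panx1, Serpinb1a, Gbp2, Gbp3 and Gbp5. The guanylate-binding proteins Gbp2, Gbp3 and Gbp5 help to open bacterial vacuoles and to expose lipopolysaccharide to Casp4. With WT 2 and WT 3 left out, 2 of the 10 genes, Gsdmd and Nlrp3, were lower at an adjusted p under 0.05 (1.21% of all genes passed in either direction), and 3, with Il1b, were lower and 0 higher at the cutoff of the study, where 3.15% of all genes were lower and 3.05% higher.

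Levels were compared between genes only per length, as CPM per kilobase of exon (RPKM), with the length of all exons of a gene in GENCODE M21. In WT macrophages the order was Ninj1 (91.3 ± 16.9), Casp1 (44.8 ± 7.15), Gsdmd (31.6 ± 5.94), Pycard (17.7 ± 3.85), Aim2 (13.2 ± 0.78), Nlrp3 (12.99 ± 7.07), Casp4 (3.85 ± 1.24), Il18 (1.42 ± 0.44), Gsdme (1.19 ± 0.30) and Il1b (0.75 ± 0.45 RPKM, SD, n = 4). The execution genes Ninj1, Casp1 and Gsdmd were thus the most abundant transcripts and the cytokines among the least. Neighbours in this order with overlapping WT ranges were Casp1 (38.4 to 55.0 RPKM) and Gsdmd (26.7 to 40.1 RPKM), Aim2 and Nlrp3, Il18 and Gsdme, and Gsdme and Il1b. The genes share libraries, and within a library Casp1 exceeded Gsdmd in 4 of 4 WT libraries, at 1.37 to 1.49 times its level (1.03 to 1.12 times with the length of the principal transcripts), and Gsdme exceeded Il1b in 4 of 4. Aim2 exceeded Nlrp3 in 2 of 4, and Il18 exceeded Gsdme in 3 of 4. In WT 1 and WT 4 alone Nlrp3 (18.3 to 19.9 RPKM) was above Aim2 (12.5 to 12.8 RPKM). The WT ranges of the other neighbours were apart, as for Ninj1 (77.1 to 115 RPKM) and Casp1, or Gsdmd and Pycard (14.6 to 23.1 RPKM). With these exon lengths, the order of the means in Gsdmd-/- macrophages was the same except for Gsdmd, which at 6.81 ± 0.66 RPKM (SD, n = 4) came between Nlrp3 (11.1 ± 0.62) and Casp4 (5.09 ± 0.36). Il18 exceeded Gsdme in only 2 of 4 Gsdmd-/- libraries, with overlapping ranges. The order depended on the length used. The exon length of Gsdme, 12742 bases, counts long transcript ends that may not be used in these cells. With the length of its principal transcript, 2502 bases, Gsdme was at 6.06 RPKM in WT and 6.44 RPKM in Gsdmd-/-, above Il18 (1.70 and 1.64 RPKM) and Il1b (1.05 and 0.62 RPKM). By the same measure Gsdmd was at 42.0 RPKM in WT, close to Casp1 (44.8 RPKM), and Casp4 was at 9.95 RPKM in WT. In Gsdmd-/- macrophages Casp4 (13.1 RPKM) was then above Nlrp3 (11.2 RPKM) and Gsdmd (9.04 RPKM) in 4 of 4 libraries.

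**Figure D4:**
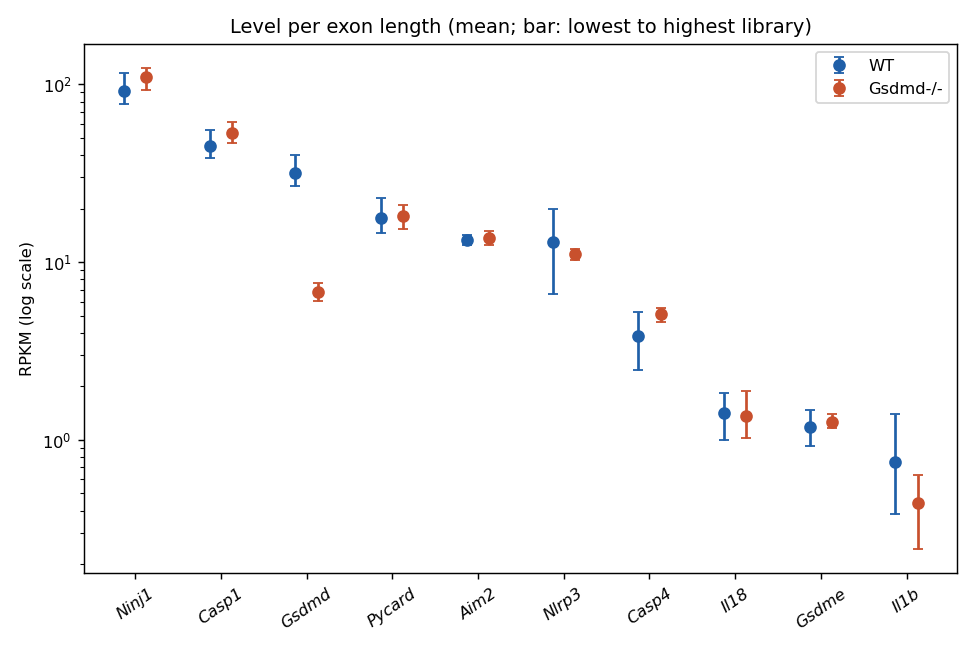
Mean level per exon length (RPKM, log scale) of the 10 genes in WT (blue) and Gsdmd-/- (red) libraries, 4 of each, in the order of the WT means. Bars run from the lowest to the highest library. Gsdmd is the only gene whose bars are apart, at 26.7 to 40.1 RPKM in WT and 6.04 to 7.64 RPKM in Gsdmd-/-, and the long WT bar of Nlrp3 runs from 6.64 to 19.9 RPKM.

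The wider pathway was examined with 67 further genes, of which 47 had enough counts for the test. With edgeR, 1 of the 47 was lower (0.209% of all genes tested were lower) and 0 were higher at an adjusted p under 0.05, and 2 were lower (3.28% of all genes) and 0 higher at the cutoff of the study. At an unadjusted p under 0.05, 3 were higher and 5 lower, where 12.0% of all genes tested passed in either direction, and no gene was higher at an adjusted p under 0.05 with DESeq2 or limma voom either. The groups did not overlap for 3 higher genes (Nek7, Txnip and Rragc) and 3 lower genes (Nlrp1a, Irf1 and Irf2), beside 3.48% higher and 4.11% lower among all genes. The median log2 fold change of the 47 genes was -0.037.

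Irf1, the transcription factor through which interferons induce guanylate-binding proteins, was the gene that passed. It was at 31.7, 38.9, 44.7 and 44.3 CPM in WT 1 to 4 and at 21.1, 20.97, 26.6 and 25.2 CPM in Gsdmd-/- 1 to 4. All Gsdmd-/- libraries lay below all WT libraries. Its log2 fold change was -0.77 (standard error 0.13, 95% confidence interval -1.06 to -0.47, adjusted p = 0.0468). The call was lost with limma voom (adjusted p = 0.0546), without WT 2 and WT 3 (0.0695) and on leaving out any library other than WT 1 (0.0513 to 0.233), while the log2 fold change stayed between -0.86 and -0.70. Irf2, a factor of the same family known to drive Gsdmd transcription, averaged 41.2 ± 2.36 CPM over WT and 35.1 ± 0.21 CPM over Gsdmd-/- libraries (SD, n = 4). Its groups did not overlap, but the log2 fold change of -0.23 did not pass the adjusted test (adjusted p = 0.279).

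Among the proteases, 0 of 5 tested passed. Casp8, the apoptotic caspase that can also cut gasdermin D, had the lowest p outside the 10 genes, with means of 73.1 ± 4.16 CPM for WT and 69.5 ± 1.88 CPM for Gsdmd-/- (SD, n = 4; log2 fold change -0.072, adjusted p = 0.752). Elane, Ctsg, Gzma, Gzmb and Casp12 had at most 4 counts in any library. Among 11 sensors tested, none passed the adjusted test, and 1, Nlrp1a, had an unadjusted p under 0.05, a share no higher than the 12.0% of all genes. Nlrp1a, the sensor of protease activity and of loss of Dpp9, averaged 7.81 ± 1.01 CPM over WT and 5.37 ± 0.72 CPM over Gsdmd-/- libraries (SD, n = 4). Its log2 fold change of -0.54 (95% confidence interval -0.89 to -0.20, adjusted p = 0.219) met the cutoff of the study, and its groups did not overlap. It missed the cutoff without WT 2 (-0.47), without Gsdmd-/- 1 (-0.45) and without WT 2 and WT 3 (-0.47). The copies Nlrp1a and Nlrp1b, and those of the Naip family, share sequence, and their reads may be split between them. Nek7, a kinase that binds Nlrp3, and Txnip, a thioredoxin-binding protein linked to Nlrp3, are given because their groups did not overlap, after their values were seen, and had log2 fold changes of 0.27 and 0.21 (adjusted p = 0.235 and 0.318). Exons of Irf1, Nek7, Txnip and Rragc also overlap genes on the opposite strand, with the limit given for Pycard.

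Of 4 cytokine receptor genes tested, none passed. Il1r1, the signalling receptor for Il1b, averaged 8.78 ± 0.81 CPM over WT and 10.1 ± 1.08 CPM over Gsdmd-/- libraries (SD, n = 4; log2 fold change 0.21, adjusted p = 0.571). Il1r2, the decoy receptor, is described because of its spread, after its values were seen. It had 162, 7, 11 and 208 counts in WT 1 to 4 and 49, 60, 51 and 42 counts in Gsdmd-/- 1 to 4. As for Nlrp3, the Gsdmd-/- libraries lay between a high and a low WT pair. The log2 fold change was -0.92 (adjusted p = 0.705) with all libraries and -1.85 (adjusted p = 0.00183) without WT 2 and WT 3. In that fit Il1r2 took the place of Irf1 as the pathway gene that passed, but leaving out the low pair set its direction. Of 7 genes tested with roles in membrane rupture and the pore, Rragc, a Rag GTPase of the lysosomal complex on which pore formation by gasdermin D has been found to depend, had the lowest p. Its mean was 224 ± 29.99 CPM for WT and 278 ± 16.4 CPM for Gsdmd-/- (SD, n = 4; log2 fold change 0.31, adjusted p = 0.286), and 0.15 without WT 2 and WT 3.

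**Figure D5:**
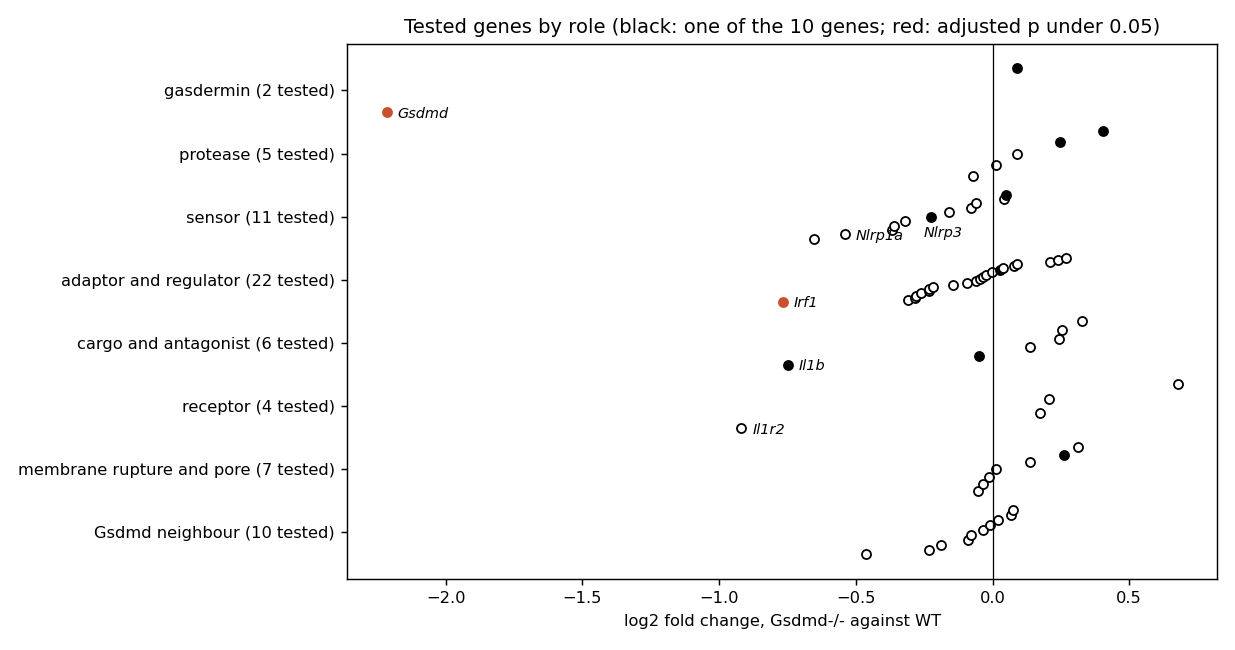
Log2 fold change, Gsdmd-/- against WT (x axis), of every tested gene of the pathway and of the neighbours of Gsdmd, in rows by role. Black filled points and Gsdmd are the 10 genes, and red points passed an adjusted p under 0.05. Gsdmd at -2.22 and Irf1 at -0.77 are the red points, and in every role genes lie on both sides of 0.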

How the data were processed

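Total RNA of BMDMs was made into TruSeq libraries, which a company sequenced. The authors deposited raw read counts per gene for 8 libraries in 1 table, mapped to mm10 by the submitters' processing notes. The aligner, counting tool, annotation and use of strand are not given in the sources used here. The deposited counts were whole numbers, and each column matched 1 sample by its label. The 10 genes, the gene lists, the markers and the alternatives were chosen with earlier results of these data known, so no list is independent evidence.

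Counts were scaled by TMM, filtered with filterByExpr and compared between genotypes with the two-sided quasi-likelihood test of edgeR 4.0.16 (R 4.3.3), with genotype as the only term and Benjamini-Hochberg adjustment over 12911 genes. CPM use the TMM library sizes, log2 CPM a prior count of 2, and RPKM exon lengths of GENCODE M21, which held 54495 of the 54532 genes. The 2 log2 ratios were compared by an exact permutation test, also with libraries left out and within replicate numbers. Depth was 14935114 to 16794810 counts per library, and limits from 0 counts cover counting error only. Replicates of a genotype differed by more than sampling noise in all 12 pairs, so none was counted as a duplicate. In data simulated from the WT and Gsdmd-/- comparison with 200 of 12911 genes changed, edgeR called 80.5% of the changed genes. The share was 56.7% at a log2 change of 0.7, 88.1% at 1 and 97.0% at 2. Of its calls 4.73% were false, against 15.4% of those of DESeq2. These shares describe the simulated counts. Whether they hold for the measured libraries, in which part of the WT group stood apart, was not tested.

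Promoters came from RefSeq (GRCm38.p6), which matched 9 of the 10 genes with 11 start sites, and the 250 bases before each start were searched on both strands for 4 motifs. Genes outside the 10 were named where they passed the test or had the lowest p of their role, with Il1rn, Il18bp and Irf2, and with the 3 genes closest to Gsdmd and to the gene of largest WT SD of log2 CPM among those of at least 1 CPM. Nek7, Txnip, Il1r2 and the genes named for the place of WT 2 and WT 3, for groups without overlap or for a call under 1 alternative were chosen after their values were seen. Of the pathway genes listed, 67 of 68 were in the table. Alternatives were RLE normalization, testing every gene with a count, a minimum of 10 counts per library, DESeq2 1.42.0, limma voom (limma 3.58.1), the replicate number as a block, and leaving out each library, or WT 2 and WT 3 together.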

Additional observations from a re-analysis of the deposited data

How the results depend on the processing

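Gsdmd was lower at an adjusted p under 0.05 under all 15 alternatives, with log2 fold changes of -2.39 to -2.08. None of the other 9 genes passed except Nlrp3 without WT 2 and WT 3 (-0.78), the libraries in which it was lowest. The sign of small differences depended on the libraries used, mostly but not only those of WT. Without WT 2 and WT 3 together, Gsdme turned to -0.20, Pycard to -0.19 and Il1rn to -0.21. Leaving out 1 library gave -0.44 to 0.059 for Nlrp3 (above 0 without WT 1), -0.019 to 0.21 for Gsdme (below 0 without WT 2 or WT 3), -0.058 to 0.18 for Pycard (below 0 without WT 2, WT 3 or Gsdmd-/- 1) and -0.25 to 0.096 for Il18 (above 0 without WT 1, WT 3, Gsdmd-/- 3 or Gsdmd-/- 4), none of them past the test. Of the 10 genes, 2 were lower at an adjusted p under 0.05 and 3 at the cutoff of the study without WT 2 and WT 3, and leaving out 1 library left 1 lower under both rules and 0 to 1 higher at the cutoff, the 1 being Casp4 without WT 4. Over all genes tested, 18 were higher and 27 lower at an adjusted p under 0.05. These counts became 44 and 65 without a filter, 105 and 187 with DESeq2, 53 and 108 without WT 2 and WT 3, and 8 to 28 and 5 to 56 without 1 library. At the cutoff of the study, 199 and 424 became 421 and 783 without a filter, 405 genes were higher without WT 2 and WT 3, and 155 to 318 were higher and 297 to 704 lower without 1 library. Of the further pathway genes, the 1 lower at an adjusted p under 0.05 became 0 with limma voom and 0 to 1 without 1 library. At the cutoff, the 2 lower became 4 (Il1r2, Il33, Irf1 and Zbp1) without WT 2 and WT 3 and 1 to 4 without 1 library, and the 0 higher became 0 to 1, the 1 being Il18rap without WT 1 and Il18bp without WT 4. The cause of these changes was not tested.

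The labels do not say whether libraries of the same replicate number were matched. The correlation of deviations between same-numbered libraries was -0.20 to 0.18 over 4 pairs, and 1 pair correlated best with its own number. So few pairs cannot settle whether the libraries were paired. With the replicate number as a block, 9 genes were higher and 16 lower at an adjusted p under 0.05 over all genes, 1 pathway gene (Il18rap) was higher at the cutoff, and the log2 fold changes of Gsdmd and Nlrp3 were -2.20 and -0.058. The log2 ratio of Il1b to Il1rn differed by -1.14 to -0.68 and that of Il18 to Il18bp by -0.73 to -0.18 without 1 library. Il1b could not be given with at least 10 counts in every library. Depth limits Il1b and Il18, with 7 to 44 counts per library.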
